A study of Mus musculus with 6 samples.

Results

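Mitochondrial ribosomal proteins are the protein parts of the ribosome that works inside mitochondria, and their genes carry the symbols Mrpl for the large subunit family and Mrps for the small subunit family. A gene was taken as a member when its symbol began with Mrpl or Mrps followed by a number, and a single transcript row was used per gene. This gave 76 members of 29072 genes in the table, 47 Mrpl and 29 Mrps. RNA was sequenced from the interscapular brown adipose tissue of C57BL/6J mice, a fat depot specialised for making heat. The knockout group was UCP1(-/-), without the uncoupling protein that lets brown fat mitochondria make heat, and the control group was wildtype on the same strain, with 3 libraries in each. The labels do not give how the Ucp1 allele was made, nor the age, sex or housing temperature of the mice. Nor do they state that each replicate is another animal, so a p-value here reflects only how far these libraries spread, and that spread may be technical.

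The mitochondrial genome encodes core subunits of the respiratory chain and of the ATP synthase, together with the ribosomal RNAs and the transfer RNAs needed to make them. All proteins of the mitochondrial ribosome are encoded in the nucleus, made in the cytosol and imported. Many are descended from bacterial ribosomal proteins, while others were acquired later and surround the older core. In brown fat, which is packed with mitochondria, these genes supply the machinery that builds the respiratory chain.

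The values are RPKM, reads scaled to transcript length and library size, so levels can be compared between genes per length. The low values imply between 15600000 and 17900000 reads per library. Ucp1 itself was listed at 375, 389 and 372 RPKM in knockout replicates 1 to 3 and at 3096, 1714 and 3151 RPKM in wildtype replicates 1 to 3, with no overlap (log2 change -2.75, adjusted p = 0.000404). All 12 brown adipocyte markers passed the filter on low values described below. Of these, 1 rose (Elovl3) and 2 fell (Ucp1 and Prdm16). The call of Elovl3 was lost after the libraries were rescaled as described below (adjusted p = 0.0711). The calls of Elovl3 and Prdm16 were also lost when some single libraries were left out, with adjusted p up to 0.129 without knockout replicate 2 for Elovl3 and up to 0.123 without it for Prdm16. For all 12, the summed level was 14369 to 15249 RPKM in knockout against 15866 to 17114 RPKM in wildtype. Without Ucp1 the sums of the other 11 overlapped, at 13994, 14095 and 14877 RPKM in knockout and 14018, 14152 and 13435 RPKM in wildtype. Skeletal muscle markers separated the groups: 20 of 20 rose, none was at 0 in any library, and their sum was 1889 to 2162 RPKM in knockout against 63.8 to 311 RPKM in wildtype. Acta1, the actin of skeletal muscle fibres, was at 425, 424 and 342 RPKM in knockout and at 46.5, 57.0 and 8.54 RPKM in wildtype, with its lowest level in wildtype replicate 3.

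The question was whether the RNA of the mitochondrial ribosome differed between brown fat with and without UCP1. Nearly all members were close to the same level in both groups. The filter kept genes that averaged 1 RPKM or more in the knockout or the wildtype group. It left 74 of the 76 members to be tested, of which 1 rose (Mrps10), 0 fell and 73 did not pass the test (limma on log2(RPKM + 1), two-sided, adjusted p under 0.05 over all 11562 genes tested). Over all genes tested, 7.67% passed, 6.95% higher and 0.718% lower in knockout, against 1.35% of the members. At an unadjusted p under 0.05 the count was 9 members (12.2%), beside 23.5% of all genes. In bulk tissue, fewer cells of a type and less RNA per cell cannot be told apart. The part of the muscle and macrophage signals in these values was not tested. Macrophage markers summed to 75.6 to 102 RPKM in knockout and 46.2 to 73.4 RPKM in wildtype, and none was at 0 in any library. Of the 11, 2 were below the filter and 1 of the 9 tested passed (Mpeg1, higher). All 9 had a positive log2 change, with a median of 0.47 (0.38 after rescaling). At an unadjusted p under 0.05 the count was 8 of them (88.9%), beside 23.5% of all genes.

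The log2 changes of the 74 members ran from -0.29 to 0.39 with a median of -0.03, and 71 of them were smaller than 0.25 in either direction. The median of all genes tested was 0.08. A positive log2 change was found for 29 members and a negative one for 45, so 39.2% lay above 0 beside 68.5% of all genes. The estimates were also narrow: the 95% interval lay within 0.5 of 0 on the log2 scale for 72 members, or 97.3%. Among the 7382 tested genes whose level fell in the members' range, 82.0% had such an interval and 6.50% passed the test. Those genes share only the outer range, since their median level was 10.6 RPKM against 31.5 RPKM for the members. The median residual SD on the log2 scale was 0.081 for members and 0.108 for those genes.

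**Figure D1:**
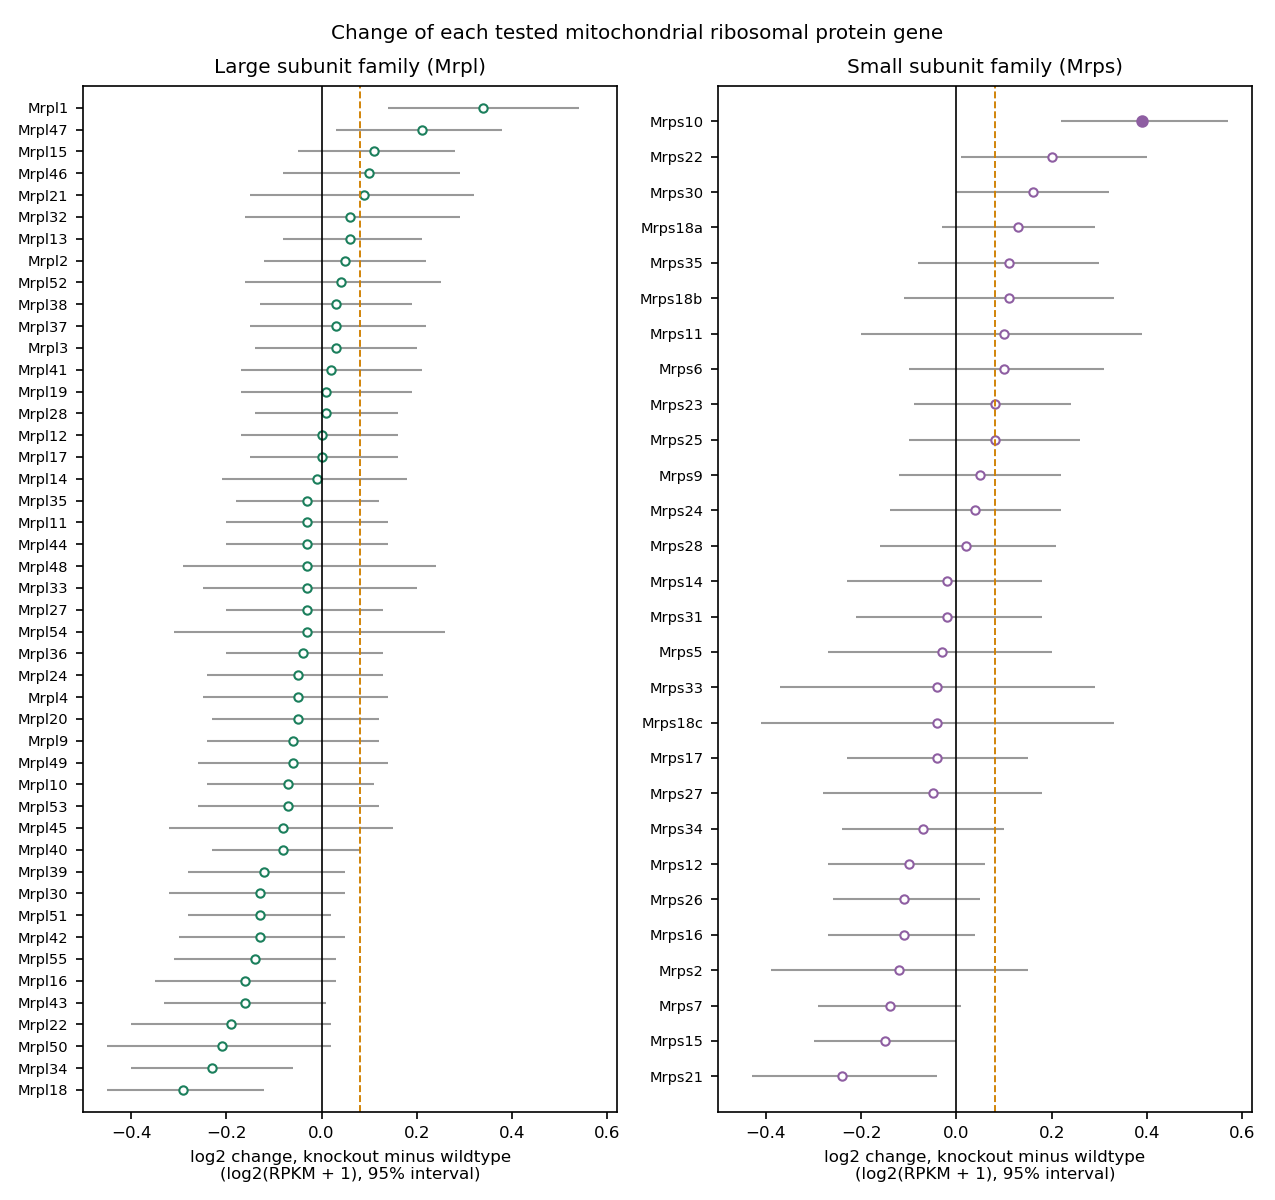
Log2 change (knockout minus wildtype, on the log2(RPKM + 1) scale) of each of the 74 tested members, with its 95% interval as a grey bar, large subunit family on the left and small subunit family on the right. The filled point passed the test (Mrps10), the black line marks 0 and the dashed line the median of all genes tested, 0.08. Most points lie within 0.25 of 0, and more lie below 0 than above it.

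Levels per length covered a wide range within each family. They are those of the row used for each gene, and the order would differ by the highest row. By that row Mrps24, for example, averaged 79.1 RPKM, above Mrps21 at 69.2 RPKM. In the large subunit family the median level was 35.3 RPKM, with quartiles of 17.4 and 49.5 RPKM, and in the small subunit family it was 26.1 RPKM, with quartiles of 15.8 and 44.5 RPKM. Mrpl34, a protein of the large subunit with a bacterial counterpart, had the highest mean over all 6 libraries at 134 RPKM. Mrpl30 followed at 129.8 RPKM and Mrpl12 at 117 RPKM. The highest of the small subunit family were Mrps16 at 77.4 RPKM, Mrps21 at 69.2 RPKM and Mrps7 at 63.8 RPKM, all with bacterial counterparts. At the low end of the tested members were Mrps33 at 3.74 RPKM and Mrpl19 at 5.88 RPKM. In these last 2 genes the groups overlapped, at 3.69 ± 0.862 against 3.78 ± 0.547 RPKM for Mrps33 (SD, n = 3; log2 change -0.04) and 5.91 ± 0.309 against 5.86 ± 0.352 RPKM for Mrpl19 (log2 change 0.01).

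**Figure D2:**
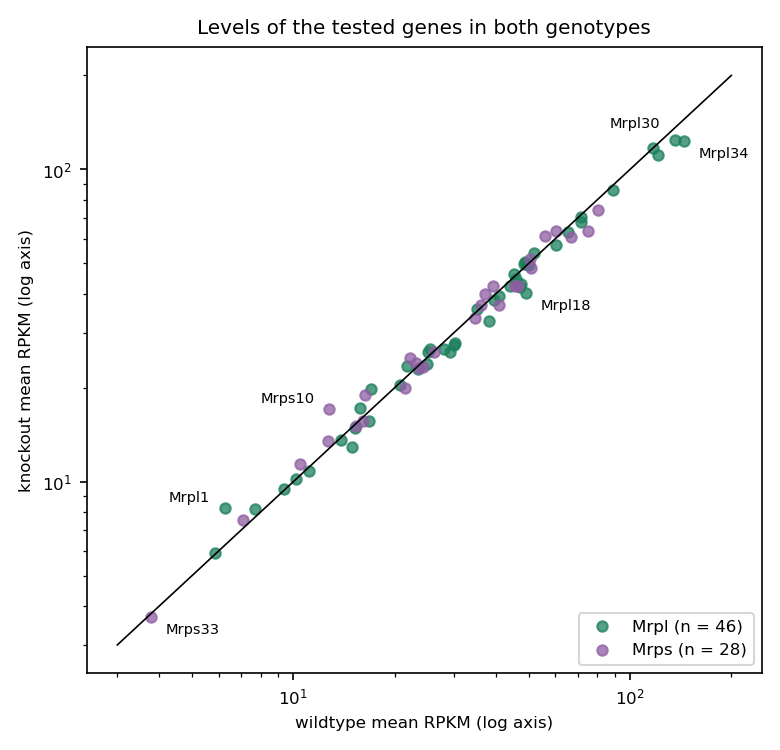
Mean RPKM of each tested member in wildtype (x axis) and knockout (y axis), both on log axes, with 46 Mrpl genes in green and 28 Mrps genes in purple and the line of equal levels in black. The points follow the line from Mrps33 at 3.74 RPKM to Mrpl34 at 134 RPKM, with Mrps10 and Mrpl1 above it and Mrpl18 and Mrpl34 below it.

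Mrps10, a small subunit protein descended from a bacterial one, was the member that rose. It was at 18.4, 16.9 and 16.1 RPKM in knockout replicates 1 to 3 and at 12.5, 12.5 and 13.4 RPKM in wildtype replicates 1 to 3. Every knockout library was above every wildtype library. The means were 17.1 ± 1.18 and 12.8 ± 0.503 RPKM (SD, n = 3), a log2 change of 0.39 with a standard error of 0.08 and a 95% interval of 0.22 to 0.57 (limma adjusted p = 0.0182). Of its 13 transcript rows, which share reads, 12 had a mean of at least 1 RPKM and all 12 were higher in knockout. The call was lost without knockout replicate 1 (adjusted p = 0.0798), without knockout replicate 2 (0.0681) and without wildtype replicate 1 (0.0637). After the libraries were rescaled by median ratios, as described below, Mrps10 did not pass either (log2 change 0.30, adjusted p = 0.0624). Its promoter is shown because it belongs to the member that passed. These are the 250 bases before the start in RefSeq (GRCm38.p6, + strand, 5′ to 3′), which hold none of the motifs searched below:
Mrps10, chr17:47368947-47369196: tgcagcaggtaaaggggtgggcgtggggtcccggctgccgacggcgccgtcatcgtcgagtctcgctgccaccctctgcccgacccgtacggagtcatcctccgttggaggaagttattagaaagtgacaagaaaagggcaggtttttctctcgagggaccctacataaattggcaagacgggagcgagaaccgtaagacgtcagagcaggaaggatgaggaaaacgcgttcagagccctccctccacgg

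In the large subunit family 46 of 47 genes were tested and none passed, beside 7.67% of all genes tested. At an unadjusted p under 0.05 there were 4 (Mrpl18, Mrpl1, Mrpl34 and Mrpl47), or 8.7% beside 23.5%. Mrpl18, which sits beside the ribosomal RNA of the large subunit, was nearest to the threshold. It was at 41.0, 39.3 and 40.2 RPKM in knockout and at 50.6, 51.3 and 45.8 RPKM in wildtype. The knockout libraries were all lower and lay closer together than the wildtype libraries. The log2 change was -0.29 (standard error 0.07, 95% interval -0.45 to -0.12), with an adjusted p of 0.05001 that missed the threshold. All 7 of its rows were lower in knockout. It passed after rescaling (log2 change -0.38, adjusted p = 0.0224) and without wildtype replicate 3 (adjusted p = 0.04). The 250 bases before its RefSeq start, on the - strand of GRCm38.p6, hold a match to the ETS motif in capitals:
Mrpl18, chr17:12916092-12916341: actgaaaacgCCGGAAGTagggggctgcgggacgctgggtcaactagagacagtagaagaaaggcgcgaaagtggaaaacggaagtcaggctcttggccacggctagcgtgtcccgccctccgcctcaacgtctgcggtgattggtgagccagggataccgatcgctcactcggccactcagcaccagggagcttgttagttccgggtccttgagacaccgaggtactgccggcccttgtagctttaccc

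Mrpl1, a bacterial-type protein of the large subunit, was at 7.83, 9.19 and 7.69 RPKM in knockout and at 6.36, 6.55 and 5.88 RPKM in wildtype. The groups did not overlap, and knockout replicate 2 was the highest library. The means of 8.24 ± 0.828 and 6.26 ± 0.345 RPKM (SD, n = 3) gave a log2 change of 0.34 (standard error 0.09), with an adjusted p of 0.0516 that missed the threshold. All 8 of its rows were higher in knockout, and it passed when all rows of a gene were summed (adjusted p = 0.0435) or the highest row was used (0.0352). Mrpl34, the most abundant member, was at 118, 123 and 129 RPKM in knockout and at 152, 136 and 148 RPKM in wildtype. Its groups did not overlap, and its log2 change of -0.23 (95% interval -0.40 to -0.06) had an adjusted p of 0.11. After rescaling it passed (log2 change -0.33, adjusted p = 0.0358). Mrpl47 was at 19.0, 19.5 and 20.8 RPKM in knockout against 16.6, 16.1 and 18.3 RPKM in wildtype, with a log2 change of 0.21 and an adjusted p of 0.149.

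Other abundant large subunit genes lay closer to 0. Mrpl12, the stalk protein that also binds the mitochondrial RNA polymerase, was at 119.9, 121 and 110.2 RPKM in knockout and at 115, 116 and 121 RPKM in wildtype. The groups overlapped, with means of 117 ± 6.06 and 117 ± 3.14 RPKM (SD, n = 3) and a log2 change of 0.00 (95% interval -0.17 to 0.16, adjusted p = 0.987). Mrpl30 was at 117, 121 and 133 RPKM in knockout against 138, 142 and 128 RPKM in wildtype, an overlap, with a log2 change of -0.13 (adjusted p = 0.355). The promoter of Mrpl12 is printed as that of an abundant member with a log2 change near 0. In the 250 bases before its start (GRCm38.p6, + strand), the match to the NRF1 motif is in capitals and reads on the opposite strand:
Mrpl12, chr11:120484387-120484636: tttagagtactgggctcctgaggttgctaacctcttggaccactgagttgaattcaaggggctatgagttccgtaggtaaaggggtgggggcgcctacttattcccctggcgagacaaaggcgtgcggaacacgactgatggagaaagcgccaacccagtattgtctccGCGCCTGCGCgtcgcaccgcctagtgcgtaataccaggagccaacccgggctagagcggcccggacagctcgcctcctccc

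In the small subunit family 28 of 29 genes were tested, and beside Mrps10 none passed. That is 3.57%, against 7.67% of all genes tested. Mrps21, a small subunit protein with a bacterial counterpart, was at 59.2, 60.6 and 71.0 RPKM in knockout and at 78.2, 74.0 and 72.4 RPKM in wildtype. Knockout replicate 3 lay close to the lowest wildtype library, without overlap, and the log2 change was -0.24 (95% interval -0.43 to -0.04, adjusted p = 0.145). Mrps15 was at 36.4, 35.7 and 38.2 RPKM in knockout against 41.2, 40.6 and 40.9 RPKM in wildtype, with no overlap and a log2 change of -0.15 (adjusted p = 0.206). The wildtype libraries of Mrps15 differed little, with an SD of 0.298 RPKM. Mrps22, a metazoan addition to the small subunit, was at 19.4, 19.6 and 17.8 RPKM in knockout against 14.6, 17.5 and 16.9 RPKM in wildtype (log2 change 0.20, adjusted p = 0.203). The abundant Mrps16 and Mrps7 had log2 changes of -0.11 (adjusted p = 0.361) and -0.14 (adjusted p = 0.249), and in both every knockout library was below every wildtype library.

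**Figure D3:**
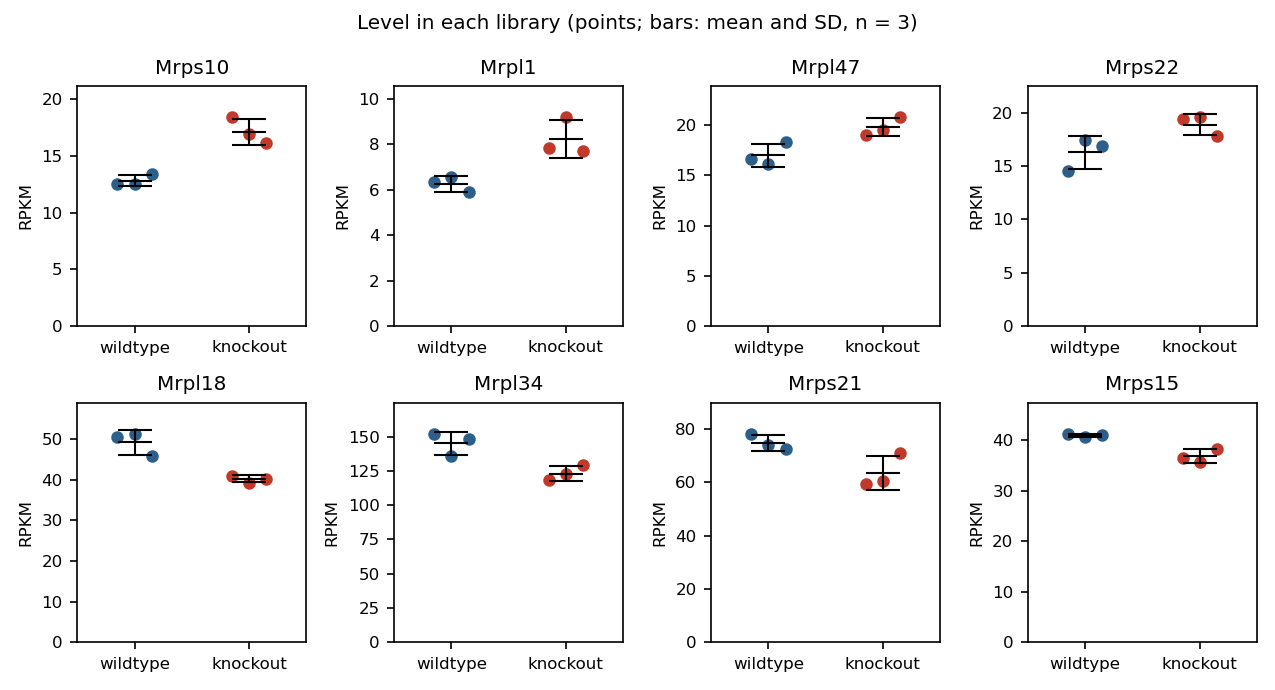
RPKM in each library for the 4 members of each family with the smallest p, points being libraries and bars the mean and SD of 3 libraries, with every axis starting at 0. Mrps10, Mrpl1, Mrpl47 and Mrps22 (top) lie higher in knockout and Mrpl18, Mrpl34, Mrps21 and Mrps15 (bottom) lie lower, without overlap, and Mrps10 alone passed the test.

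The paralogues Mrps18a, Mrps18b and Mrps18c descend from the same bacterial protein and occupy different places in the ribosome, with Mrps18a in the large subunit. Mrps18a was the most abundant, at 64.5, 60.0 and 59.2 RPKM in knockout and 54.7, 57.0 and 55.9 RPKM in wildtype. Its groups did not overlap, but the log2 change of 0.13 had an adjusted p of 0.294. Mrps18b was at 11.4 ± 0.799 against 10.5 ± 1.18 RPKM (SD, n = 3; log2 change 0.11, adjusted p = 0.523). Mrps18c was at 16.3, 12.5 and 18.0 RPKM in knockout against 17.9, 17.7 and 12.6 RPKM in wildtype. In Mrps18c, knockout replicate 2 and wildtype replicate 3 were low by similar amounts, so its interval of -0.41 to 0.33 was the widest among the members.

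The groups did not overlap in 18 of the 74 tested members. The knockout libraries were all above in 7 (9.46%, beside 24.2% of all genes tested) and all below in 11 (14.9%, beside 5.11%). The 7 were Mrpl1, Mrpl13, Mrpl47, Mrps10, Mrps18a, Mrps22 and Mrps30. The 11 were Mrpl18, Mrpl34, Mrpl43, Mrpl51, Mrpl55, Mrps7, Mrps12, Mrps15, Mrps16, Mrps21 and Mrps26. The balance of directions moved with the scaling of the libraries. When each library was divided by the median ratio of its values to the mean library, the median over all genes tested went from 0.08 to -0.01. The calls over all genes then went from 804 higher and 83 lower to 490 higher (4.24%) and 152 lower (1.32%), 5.56% in all. The median of the members went to -0.12, with 61 below 0 and 13 above. Of the members, 2 passed, both lower (Mrpl18 and Mrpl34), and Mrps10 did not. Knockout libraries were then all below wildtype in 30 members (40.5%, beside 13.1% of all genes) and all above in 2 (2.70%, beside 14.1%).

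The large subunit family had a median log2 change of -0.03, with 16 genes above 0 and 30 below, and the small subunit family one of -0.02, with 13 above and 15 below. After rescaling the medians were -0.12 and -0.11. Genes with a bacterial counterpart had medians of -0.03 in both families (29 and 17 tested), and those without one had medians of -0.06 in the large (17 tested) and 0.03 in the small subunit family (10 tested). Grouping by the subunit in which a protein sits, with Mrps18a and Mrps30 moved to the large one and Mrps36 left out, gave medians of -0.03 for both subunits.

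Summed over its 47 genes, the large subunit family was at 1871, 1863 and 1890.5 RPKM in knockout and at 1998, 1929 and 1954 RPKM in wildtype. The sums did not overlap, and the knockout mean differed from that of wildtype by -4.35% as deposited and by -10.6% after rescaling. Abundant genes weigh most in such a sum. Mrpl34 and Mrpl30 had means of 123 and 124 RPKM in knockout against 145 and 136 RPKM in wildtype. Of the 46 tested genes of this family, 16 had a positive log2 change as deposited. The small subunit family summed to 950.3, 934 and 939 RPKM in knockout and to 969, 931 and 964 RPKM in wildtype. These sums overlapped as deposited, with a difference of -1.41%, and were -7.9% apart after rescaling. The ratio of the large to the small family sum was 1.97, 1.99 and 2.01 in knockout and 2.06, 2.07 and 2.03 in wildtype. The ratio does not depend on library scaling, and the knockout libraries were lower by a few hundredths. It does depend on the grouping, which is by symbol. Mrps18a and Mrps30 sit in the large subunit but count in the small family here. Both were higher in knockout, at means of 61.2 against 55.8 and 24.9 against 22.2 RPKM. The ratio was not taken by subunit, so nothing is read from it about the subunits. No test was made of these sums.

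**Figure D4:**
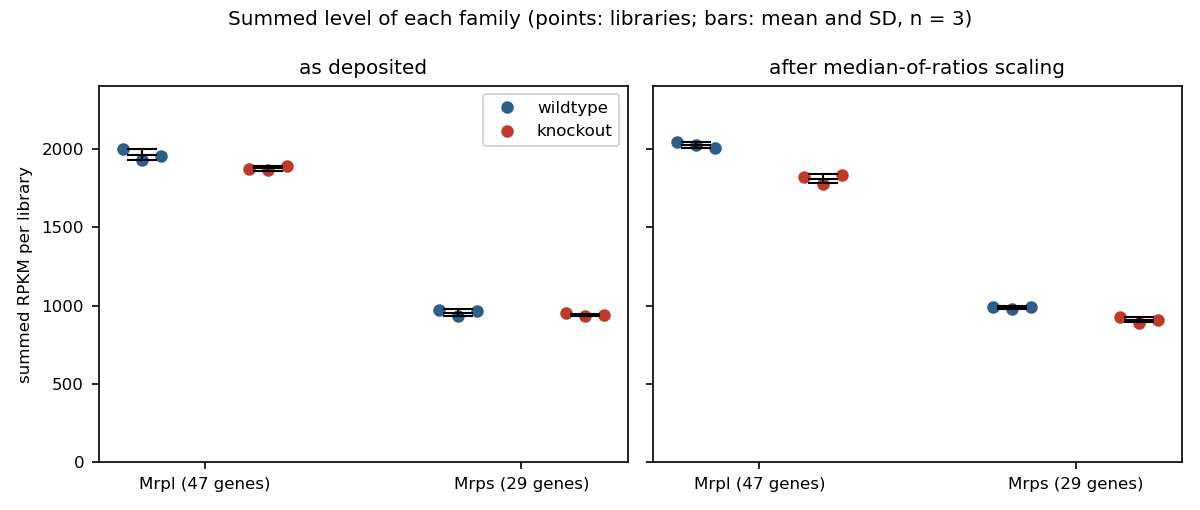
Summed RPKM of the 47 Mrpl and 29 Mrps genes in each library as deposited (left) and after median-of-ratios scaling (right), points being libraries and bars the mean and SD of 3 libraries. As deposited, the Mrpl sums lie lower in knockout without overlap and the Mrps sums overlap, and after scaling both families lie lower in knockout.

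The table lists 470 transcript rows for the 76 members, between 2 and 16 each, and the RefSeq row used here was not always the highest. In 11 members another row was at least 2 times the one used, up to 9.18 times among tested members for Mrpl17. Mrpl23 and Mrps36 were the members below the filter. The RefSeq row of Mrpl23 was at 0.215 RPKM in knockout replicate 1, 0.105 RPKM in wildtype replicate 1 and 0 elsewhere, while its highest row averaged 13.2 RPKM and gave a log2 change of 0.10 (adjusted p = 0.519). For Mrps36, now known mainly as a component of the 2-oxoglutarate dehydrogenase complex, the highest row averaged 1.56 RPKM. Across rows with a mean of at least 1 RPKM, every row was higher in knockout in 19 members and lower in 32, as deposited. The same count was not made over all genes or after rescaling, so nothing is read from it. Rows of a gene share reads, and members with processed pseudogenes or overlapping neighbours may hold reads of those, since the use of strand and of multiply mapped reads is not given in the sources used here.

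A few mitochondrial ribosomal proteins carry other symbols, and 7 of them were tested. Gadd45gip1, which encodes a large subunit protein also known as a partner of growth arrest proteins, fell. It was at 23.2, 20.8 and 24.4 RPKM in knockout and at 30.9, 29.8 and 32.2 RPKM in wildtype, with no overlap. The log2 change was -0.43 (standard error 0.08, 95% interval -0.61 to -0.24, adjusted p = 0.0155), and -0.52 after rescaling (adjusted p = 0.00749). The call was lost without knockout replicate 1 (adjusted p = 0.0585), knockout replicate 2 (0.0641) or wildtype replicate 1 (0.0502). Over all the alternatives listed below, the log2 change of Gadd45gip1 ran from -0.99 to -0.36, so its size depends on the processing. Gadd45gip1 lies on the chromosome of Ucp1, within 10 Mb of it, where 16 of 98 tested genes passed (16.3%, 11 higher and 5 lower). Over all genes tested the share was 7.67%, with 6.95% higher and 0.718% lower. None of the 76 members lies within 10 Mb of Ucp1. Mrpl34 and Mrps31 are on the same chromosome, at 11.8 and 60.9 Mb from Ucp1, so Mrpl34 is just outside that bound. The part of position near Ucp1 in the changes of Gadd45gip1 and Mrpl34 was not tested.

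The other 6 did not pass. Dap3, a GTP-binding protein of the small subunit, had a log2 change of 0.07, and the small subunit proteins Aurkaip1, Chchd1 and Ptcd3 had changes of -0.04, -0.04 and 0.00. Ict1, a release factor built into the large subunit, was at 32.2 ± 2.03 against 29.6 ± 1.68 RPKM (SD, n = 3; log2 change 0.12, adjusted p = 0.406). The large subunit protein Mrp63 had a change of 0.07.

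Genes that serve this ribosome were close to 0 as well. Of 18 translation factors, the proteins that start, extend and end mitochondrial translation or stabilise its messengers, none passed, and the median log2 change was 0.00. Over all genes tested 7.67% passed, so a count of 0 or 1 in a list this short says little. Slirp, which binds mitochondrial messenger RNA, had the smallest p, at 42.0 ± 1.06 against 48.5 ± 2.72 RPKM (SD, n = 3; log2 change -0.20, adjusted p = 0.131). It passed after rescaling (log2 change -0.30, adjusted p = 0.0405). Of 27 genes for ribosome assembly and modification of its RNA, 1 rose and 0 fell, with a median of 0.05. The gene that rose was Mrm1, a methyltransferase of the large ribosomal RNA, at 7.71, 8.19 and 6.90 RPKM in knockout and 5.61, 4.38 and 5.79 RPKM in wildtype. Its log2 change was 0.46 (adjusted p = 0.0387). The call was lost after rescaling (0.076), and without knockout replicate 1 (0.127), 2 (0.147) or 3 (0.057) or wildtype replicate 1 (0.0701) or 2 (0.0597).

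Of 18 genes for mitochondrial DNA transcription and RNA processing, 0 passed (beside 7.67% of all genes tested), with a median of 0.00. Mtpap, the mitochondrial poly(A) polymerase, had the smallest p in that list, at 14.3 ± 0.774 against 12.0 ± 0.150 RPKM (SD, n = 3; log2 change 0.24, adjusted p = 0.0867). Of 7 mitochondrially encoded genes tested, whose proteins this ribosome makes, none passed. Their levels ran from 4.68 to 36796 RPKM, and the median log2 change was 0.04. The smallest p was that of ND3, a subunit of complex I (log2 change -0.51, adjusted p = 0.175, and 0.0455 with a replicate block). The cytosolic ribosome makes the mitochondrial ribosomal proteins themselves. It had 50 of 78 genes above the filter, 0 called (beside 7.67% of all genes tested) and a median of -0.03. Its smallest p was that of Rpl37, at 5.78 ± 0.617 against 7.27 ± 1.16 RPKM (SD, n = 3; log2 change -0.28, adjusted p = 0.202). Many cytosolic ribosomal protein genes have near-identical pseudogenes and are uncertain in this table. After rescaling the medians of the translation, assembly, transcription and cytosolic lists were -0.10, -0.04, -0.10 and -0.11, against -0.12 for the members and -0.01 for all genes.

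**Figure D5:**
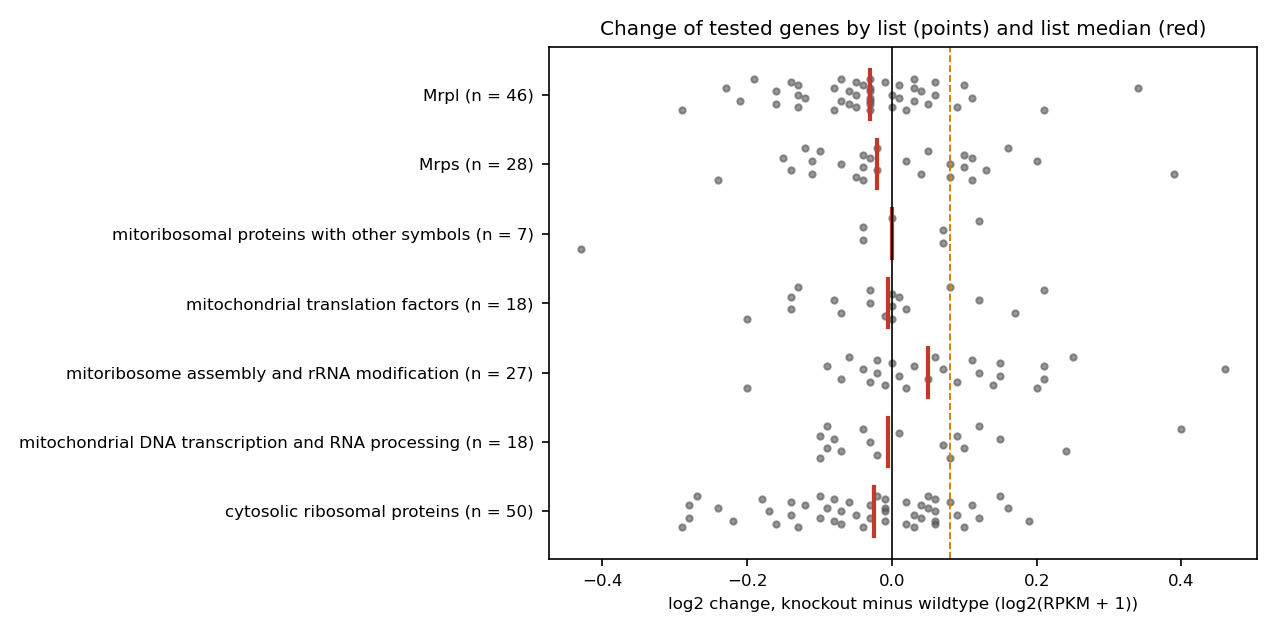
Log2 change (knockout minus wildtype, on the log2(RPKM + 1) scale) of every tested gene of both families, of mitochondrial ribosomal proteins with other symbols, and of the translation, assembly, transcription and cytosolic ribosome lists, points being genes, red lines list medians, the black line 0 and the dashed line the median of all genes tested, 0.08. The plotted medians lie between -0.03 and 0.05, and the lowest and highest plotted points are Gadd45gip1 at -0.43 and Mrm1 at 0.46.

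Promoter windows in RefSeq (GRCm38.p6), from 250 bases before to 50 after a gene's start, matched 67 of the 76 members. They were searched on both strands for motifs of factors known for nuclear genes of mitochondrial proteins. The NRF1 motif, GCGCA, then any base, then GCGC, was in the windows of 12 members (17.9%), beside 12.1% of the tested genes with a window and 5.19% of all genes with one. The ETS family motif CCGGAAGT, bound by GABPA, was also in 12 (17.9%), beside 9.66% and 4.31%. The YY1 motif AAGATGGCG was in 8 (11.9%), beside 3.86% and 1.64%. The E-box CACGTG was in 5 (7.46%), beside 12.0% and 8.09%. The ATF4-CEBP response element TGATGNAA was in 0, beside 2.71% and 4.51%. None of these motifs contains another. A match is a description and neither a binding site nor a cause, and no match says only that these letters are not in this window.

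Many members start close to an oppositely transcribed gene, so that the promoter windows of both overlap. This was so for 21 of the 67 members (31.3%), beside 12.9% of 8515 tested coding genes and 7.72% of 17492 coding genes with a window. Of the partners, 19 were tested and 0 passed, beside 7.67% of all genes tested, and a count over so few genes says little. The 19 include Mrpl46 and Mrps11, which are members and partners of each other. The genes in these pairs are named here after their values were seen. Mrpl46 and Mrps11 are members from different subunits that start 42 bases apart, and both had a log2 change of 0.10. Mrpl18 starts 238 bases from Tcp1, a subunit of the cytosolic chaperonin, whose log2 change was -0.15 (adjusted p = 0.225) beside -0.29 for Mrpl18. Mrpl47 starts 308 bases from Ndufb5, a subunit of complex I, with log2 changes of 0.21 and -0.09. Mrpl43 starts 116 bases from Twnk, the mitochondrial DNA helicase, with changes of -0.16 and -0.04. The stretch between the starts of Mrpl46 and Mrps11 is shown because it lies between a large and a small subunit gene. Its use as a promoter by both was not tested. It holds 41 bases and is given on the - strand, in the direction of Mrpl46:
Mrpl46 to Mrps11, chr7:78783090-78783130: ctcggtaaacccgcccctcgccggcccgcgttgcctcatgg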

How the data were processed

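Per the labels' protocols, libraries were made from total RNA (TruSeq kit). CASAVA and bcl2fastq are named in the submitters' processing notes. Which aligner, build and annotation were used is not given in the sources used here. RPKM values deposited by the authors, without counts, cover 168326 transcript rows in 6 libraries. The unit was worked out from the values: 96.3% to 96.4% of low values of Ensembl transcripts were whole reads, within 0.1 reads, once multiplied by length. The depth of each library is known only through this step. Rows without a gene identifier (13.8%) were left out. For each gene a RefSeq row was preferred, then the highest mean. Transformed values, log2(RPKM + 1), were fitted in limma 3.58.1 (R 4.3.3) with an intensity trend and genotype as the only factor, keeping genes that averaged 1 RPKM or more in a group. This test was planned for RPKM in case there were no counts. P-values were adjusted by Benjamini-Hochberg over all genes tested, at a threshold of 0.05. The fit was also run on simulated data. The changes put into those data were all larger than those of the members, so that run says nothing about changes of the members' size.

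The members, gene lists and tests were chosen with earlier results of these data known. Named by rule were every called member, the 4 members with the smallest p in each family, the most and least abundant, the Mrps18 paralogues and Mrpl12, every tested protein with another symbol, and from each other list up to 4 called genes or the gene with the smallest p. Other genes were named after their values were seen. Alternatives changed the scaling, filter, pseudocount (0.1), rows per gene, model and replicates. Endothelial markers (10 tested, 0 passed, median 0.00) and stromal markers (8 tested, all above 0, 1 higher, median 0.29) were also measured. Over all genes tested 7.67% passed and 68.5% lay above 0. The stromal call, Col3a1, was lost after rescaling (adjusted p = 0.0848) and without knockout replicate 2 (0.132) or 3 (0.101) or wildtype replicate 1 (0.109) or 3 (0.0793). No libraries were duplicates: wildtype replicates 2 and 3 shared the exact value of 2 genes, and every other pair of 0.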

Additional observations from a re-analysis of the deposited data

How the results depend on the processing

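The number of genes called, 887, was 454 with a filter of 5 RPKM, 642 after rescaling and 455 to 849 when a library was left out (474 without knockout replicate 1, 455 without knockout replicate 2). Among Mrpl genes 0 were called, and 2 were called after rescaling, 1 with summed rows, 1 with the highest row and 0 to 1 when a library was left out. Among Mrps genes 1 was called, 0 after rescaling and 0 to 1 when a library was left out. The Mrpl median of -0.03 became -0.12 after rescaling and ran from -0.05 to -0.01 when a library was left out. The Mrps median of -0.02 became -0.11 after rescaling and 0.01 with the highest row, and ran from -0.02 to 0.04 when a library was left out. The sign of the Mrps median is therefore not settled. The cause of these shifts was not tested. With a replicate block, 775 genes were called (688 higher, 87 lower), and Mrps10 kept its call (adjusted p = 0.0476). Over all alternatives the adjusted p of Mrps10 ran from 0.0197 to 0.0798. Deviations of libraries with the same number had correlations of 0.09, 0.04 and -0.02, and those with different numbers ran from -0.14 to 0.07. With 3 libraries per group, these values cannot tell whether libraries of the same number belong together. The rows used for Mrpl23, Mrps36 and Mrps33 are the lowest among the members, and for Mrpl23 another row is far higher, so its low value rests on the choice of row. The part of depth was not tested.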
